A study of Mus musculus with 10 samples.

Results

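The comparison of untreated cells on day 7 with untreated cells on day 6 follows what changed over the last 24 h of a mouse embryonic stem cell differentiation when no Gdf11 was given. It rests on the 2 D7 libraries and the 2 D6 libraries, chosen by their labels alone, which are 4 of the 10 RNA-seq libraries of the series. All libraries came from 1 wild-type line, ES-Bruce4, of strain C57BL/6, grown on embryo fibroblast feeders that were removed by 1 depletion step before plating. From day 0 the cells were in N2B27 medium with basic Fgf at 10 ng/ml, from day 2 they received CHIR99021 at 5 µM, an inhibitor of Gsk3 that switches on Wnt target genes, and they were split on day 3. The D7 cells were collected on day 7 without Gdf11, and the D6 cells were collected on day 6 before any Gdf11. The other groups, which entered the same fit and give levels at other times, are D2 and D3, collected on days 2 and 3, and D7G, collected on day 7 after 24 h of Gdf11 at 50 ng/ml, each with 2 libraries. The labels allow B27 supplement with or without vitamin A and do not say which library had which. They do not say whether the 2 libraries of a group came from separate cultures, so a p-value measures only how far these libraries spread, and that spread can be technical.

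The culture aims at neuromesodermal progenitors (NMPs), cells of the caudal embryo that supply both the spinal cord and the paraxial mesoderm. In the embryo, Wnt and Fgf signals hold cells in this state, with T, Sox2, Nkx1-2 and the Cdx genes on together, and retinoic acid from the somites opposes Fgf and lets the cells that leave towards the cord become neural progenitors. Proneural transcription factors then drive some of these progenitors out of the cell cycle to become neurons, while Notch signalling keeps their neighbours dividing. RNA of a whole dish was sequenced here, so a smaller share of cells that express a gene and less of its RNA per cell cannot be told apart.

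Of 52459 gene symbols in the count table, 18818 had enough counts to be tested. The libraries held 31078950 to 33418015 counts each, and levels are given in CPM, counts scaled to a common library size. Genes with an adjusted p under 0.05 in edgeR's quasi-likelihood test are said to be called; the test was fitted on all 10 libraries and adjusted over all tested genes by Benjamini and Hochberg. By that measure 6782 genes, 36%, differed between D7 and D6, with 3853 higher on D7 (20.5%) and 2929 lower (15.6%). Each count of list members below is to be read beside these 2 shares. At least 2-fold changes were fewer, with 494 genes higher (2.63%) and 133 lower (0.707%). Genes with a mean under 1 CPM over D7 and D6 made up 254 of these rises and 83 of these falls. The other steps, read from the same fit, called 11007 genes for D3 against D2 (58.5%), 12367 for D6 against D3 (65.7%) and 7661 for D7G against D7 (40.7%). For 12499 genes (66.4%) the 2 D7 values did not overlap the 2 D6 values. Non-overlap of a named gene is thus a description and adds no support, and the largest changes named were picked partly by it. DESeq2 gave 283 rises and 66 falls of at least 2-fold, a filter of 1 CPM in 2 libraries gave 86 such falls, and leaving out D7 replicate 2 gave 2294 rises of any size and 329 of at least 2-fold. The split was not stable: 56.8% of the called genes were higher, but 46.7% without D7 replicate 1, 46.3% without D7 replicate 2, 47.6% without either D3 library, 47.4% without either D7G library, 49.2% with only the libraries compared, 48.9% with 1 CPM in 2 libraries as the minimum, 48.3% with no filter and 66.1% with library totals. Replicates were close on the log scale (r = 0.995 between the D7 libraries and 0.995 between the D6 libraries, across genes), and D7 and D6 libraries were almost as alike (r from 0.989 to 0.990). Fold changes from here on are log2 values of D7 over D6 with their standard error, and p-values are adjusted p from the same edgeR fit.

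**Figure D1:**
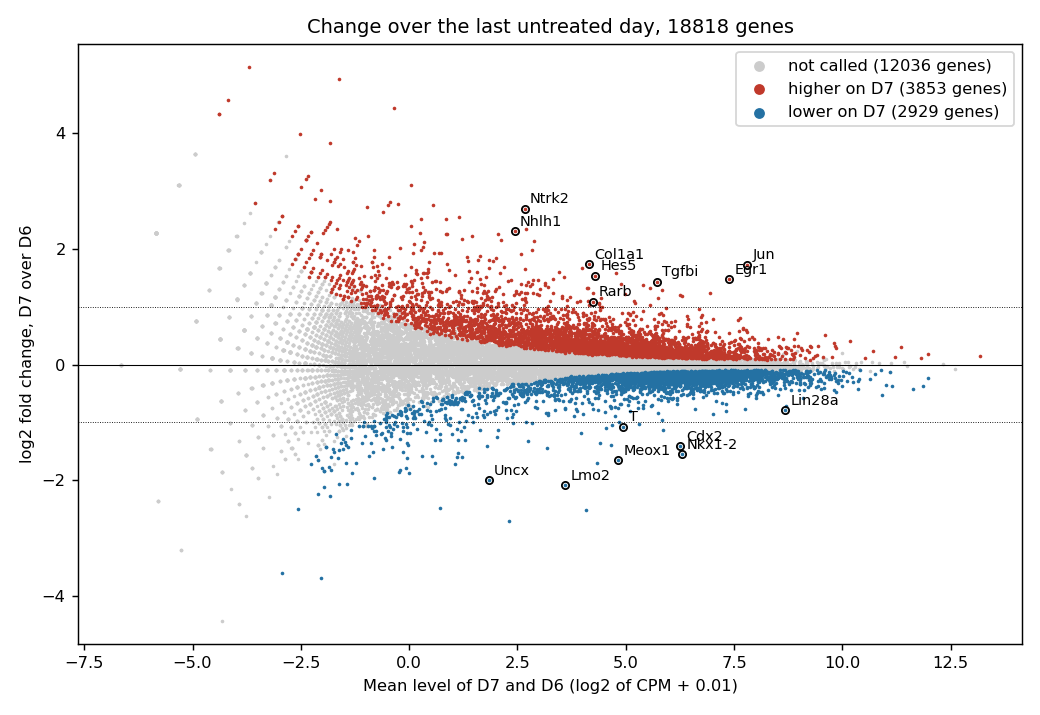
Each dot is 1 of the 18818 tested genes, placed by its mean level over the D7 and D6 libraries (log2 of CPM + 0.01) and its log2 fold change of D7 over D6; red dots were called higher on D7 (3853), blue dots lower (2929), and dotted lines mark 2-fold. Caudal and somite genes such as Nkx1-2, Cdx2 and Meox1 lie at the lower edge of genes at like levels and Ntrk2 and Nhlh1 at the upper edge; larger changes stand mostly at levels near or under 1 CPM.

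Markers of several cell types were measured together in the same dishes. The 4 NMP markers T, Sox2, Nkx1-2 and Cdx2 were all present in D7 cells and in D6 cells, as were neural progenitor markers (Sox1, Sox2, Pax6, Hes5) and neuron markers (Tubb3, Dcx, Elavl3, Elavl4, Stmn2). The presomitic marker Msgn1 was near the detection limit, at 0.0598 and 0.0903 CPM in the D7 libraries and 0.0966 and 0.387 CPM in the D6 libraries, and not called unless D6 replicate 1 was left out (adjusted p = 0.016). Pluripotency markers remained measurable: Nanog stood at 89.3 and 87.1 CPM in D7 cells and 70.4 and 93.8 CPM in D6 cells, with no call (0.10 ± 0.08, adjusted p = 0.369), though it was called higher without D6 replicate 2 (0.32, adjusted p = 0.001). The endothelial marker Cdh5 (0.389 and 0.452 CPM on D7, 0.354 and 0.355 CPM on D6) and the crest marker Sox10 (0.18 and 0.241 CPM on D7, 0.161 and 0.0968 CPM on D6) were near 0. They do not stand for all markers of these types. The crest marker Tfap2a was called higher on D7, and the vessel marker Kdr lower, a call that was lost with DESeq2. The 13 crest genes listed summed to 80.8 and 79.5 CPM on D7 and 65.6 and 61.9 CPM on D6.

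The caudal progenitor programme was lower on D7 almost throughout. Of 17 caudal epiblast and NMP genes tested, 13 were lower on D7 and 1, Cyp26a1, was higher, where 15.6% of all genes were lower, and the median of the 17 was -0.68 against 0.04 over all genes. Nkx1-2, a homeobox gene of the preneural caudal epiblast, was at 41.6 and 38.1 CPM in the D7 libraries, against 113 and 120.0 CPM in the D6 libraries. Both D7 values lay far below both D6 values (-1.55 ± 0.05, adjusted p = 1.02e-13). Cdx2, which opens trunk and tail identity, was at 43.1 and 40.7 CPM on D7, against 109 and 113 CPM on D6 (-1.41 ± 0.05). Its paralogues moved the same way, Cdx1 to 37.4 and 35.1 CPM on D7 against 72.7 and 85.4 CPM on D6 (-1.12 ± 0.07) and Cdx4 to 38.1 and 38.8 CPM on D7 against 69.1 and 68.02 CPM on D6 (-0.83 ± 0.05). T, the T-box factor of primitive streak and tail bud, was at 20.3 and 19.3 CPM on D7 and 40.1 and 43.3 CPM on D6 (-1.08 ± 0.06). These 5 genes had no overlap between the groups, which held for 66.4% of all tested genes.

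The fall before the last day differed between T and Cdx2. T averaged 232 CPM on D3 and 41.7 CPM on D6, so most of its decline came before the last day, whereas Cdx2 averaged 154 CPM on D3 and 111 CPM on D6, and 41.9 CPM on D7. Evx1, a caudal homeobox gene, was at 4.16 and 3.46 CPM in D7 cells, against 9.43 and 9.52 CPM in D6 cells (-1.31 ± 0.12), and the transcript that lies beside it, Evx1os, fell as well (-1.13 ± 0.17); without knowledge of strand in the counting, reads of this pair cannot be told apart. In cells that received Gdf11 on the same day, Evx1 averaged 14.4 CPM in D7G against 3.81 CPM in D7, and Cdx2 averaged 24.98 CPM in D7G against 41.9 CPM in D7. Wnt8a, a caudal Wnt ligand, was at 5.12 and 5.66 CPM on D7 and 8.14 and 7.84 CPM on D6 (-0.57 ± 0.10). Fgf8, the main Fgf ligand of the tail bud, was not called: it was at 12.3 and 10.4 CPM in D7 cells and 12.1 and 11.8 CPM in D6 cells (-0.07 ± 0.10, adjusted p = 0.622).

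**Figure D2:**
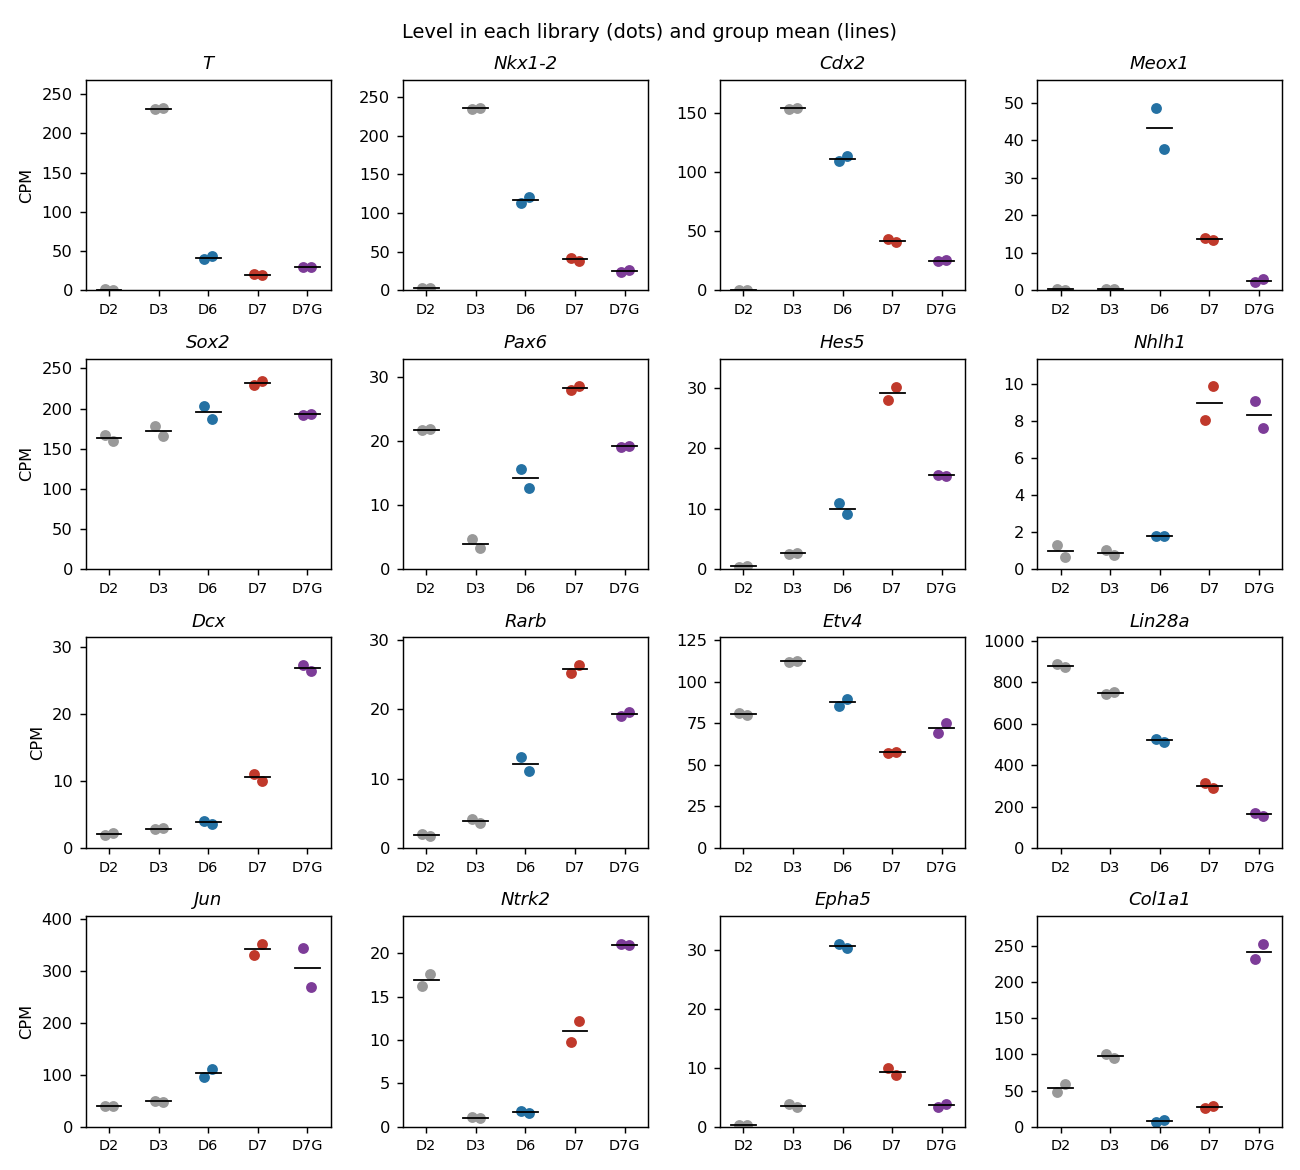
CPM of 16 genes, named by the rule for this report, in each of the 10 libraries: D2, D3, D6 and D7 in time order and D7G, the cells given Gdf11 on day 6, last; dots are libraries and lines are group means of 2. Nkx1-2, Cdx2, T, Meox1, Epha5, Etv4 and Lin28a are lower on D7 than on D6, and Hes5, Nhlh1, Dcx, Rarb, Jun, Ntrk2, Pax6, Sox2 and Col1a1 are higher.

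Genes of the paraxial mesoderm fell alongside. Of 13 somite genes tested, 8 were lower and 1 was higher on D7, or 0 higher without D7 replicate 1. The median of the 13 was -0.74. Meox1, a homeobox gene of the whole somite, was at 13.9 and 13.5 CPM in D7 cells, against 48.6 and 37.7 CPM in D6 cells. Even the lower D6 library was well above both D7 libraries (-1.66 ± 0.10, adjusted p = 4.31e-10). Uncx, which marks the caudal part of each somite, was at 1.47 and 1.39 CPM on D7 and 6.86 and 4.55 CPM on D6 (-1.998 ± 0.20). Dmrt2, a dermomyotome factor, was at 19.3 and 18.2 CPM on D7 and 39.2 and 30.2 CPM on D6 (-0.89 ± 0.11). Tcf15, needed for somite epithelium, was at 6.91 and 6.41 CPM on D7 and 12.8 and 10.8 CPM on D6 (-0.83 ± 0.11). Foxc2, a forkhead factor of the paraxial mesoderm, was at 6.01 and 5.24 CPM on D7 and 10.6 and 8.17 CPM on D6 (-0.74 ± 0.15). Meox1 had appeared only between D3 and D6: it averaged 0.277 CPM on D3, 43.1 CPM on D6 and 13.7 CPM on D7. The somite genes Tbx22, Myf5, Myod1, Myog and Nkx3-2 had too few counts to be tested.

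Presomitic and segmentation genes split. Of 10 tested, 6 were lower on D7 and 2 higher, with a median of -0.73. Tbx6, the T-box gene that commits cells to mesoderm, was at 0.658 and 1.48 CPM in D7 libraries and 3.31 and 3.16 CPM in D6 libraries (-1.60 ± 0.27, or -2.33 without D7 replicate 2). Hes7, the oscillating repressor of the segmentation clock, was at 0.838 and 0.572 CPM on D7 and 2.70 and 1.90 CPM on D6 (-1.70 ± 0.25). Mesp2, which sets segment borders, was at 0.389 and 0.693 CPM on D7 and 1.48 and 1.29 CPM on D6 (-1.35 ± 0.30), all 3 at low levels. Of the 2 that rose, Pcdh8, a protocadherin, was at 13.1 and 14.2 CPM in D7 cells against 7.24 and 6.71 CPM in D6 cells (0.97 ± 0.10). Lfng, a glycosyltransferase that modifies Notch, was at 22.5 and 19.3 CPM in D7 cells against 10.6 and 11.8 CPM in D6 cells (0.90 ± 0.09). Both are also expressed in the developing nervous system.

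Among genes that respond to Wnt signalling, 8 of 17 tested were lower on D7 and 1, Wif1, a secreted Wnt antagonist, was higher (1.44 ± 0.13). The median of the 17 was -0.26. Sp5, a direct target of β-catenin in caudal progenitors, was at 21.8 and 22.8 CPM on D7, against 33.1 and 38.2 CPM on D6. Both D7 libraries lay below both D6 libraries (-0.68 ± 0.08). Lef1, a Tcf-family factor that is itself a target, was at 64.9 and 55.5 CPM on D7 and 81.3 and 71.2 CPM on D6 (-0.34 ± 0.06). Tnfrsf19 was at 243 and 227 CPM on D7 and 323 and 332 CPM on D6 (-0.48 ± 0.04). Axin2, the most widely used readout of the pathway, was not called: 159 and 157 CPM in D7 cells and 163 and 169 CPM in D6 cells (-0.07 ± 0.06, adjusted p = 0.372), with adjusted p = 0.0495 and 0.0491 without D7G replicate 1 or 2. Among 18 Wnt ligands tested, 4 were higher and 3 lower, near the shares over all genes (20.5% higher and 15.6% lower). Wnt4 was at 26.8 and 29.5 CPM on D7 and 15.3 and 11.9 CPM on D6 (1.05 ± 0.11). Wnt5a, a ligand of caudal mesenchyme, was at 12.03 and 11.1 CPM on D7 and 20.98 and 20.6 CPM on D6 (-0.85 ± 0.08).

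The 250 bases before the start of Sp5, chr2:70474673-70474922 on the plus strand of GRCm38.p6, are shown because this target is dense in the letters that Tcf and Lef factors bind. The sequence is from RefSeq. Capitals mark CTTTGA or CTTTGT on either strand.
Sp5: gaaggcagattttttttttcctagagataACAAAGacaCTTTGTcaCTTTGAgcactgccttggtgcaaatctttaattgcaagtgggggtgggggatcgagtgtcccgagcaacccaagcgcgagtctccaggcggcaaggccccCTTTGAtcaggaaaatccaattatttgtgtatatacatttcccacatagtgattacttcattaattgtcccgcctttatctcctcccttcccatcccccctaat
It holds 4 such matches, with their first bases at -221, -212, -204 and -104 from the start. Of all 32851 RefSeq promoter windows of this length, 27.6% hold at least 1 match and 5.15% hold 2 or more. Of the 11 Wnt target genes with a window, 4 hold a match, namely Dkk1, Lef1, Sp5 and Tnfrsf19. A match is only a description of the letters.

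Most feedback genes of Fgf and Erk signalling were lower. Of 12 tested, 7 were lower on D7 and 0 higher, and the median of the 12 was -0.23. Il17rd (Sef), a membrane inhibitor of Fgf receptors, was at 166 and 151 CPM in D7 cells, against 267 and 276 CPM in D6 cells. The fall was -0.77 ± 0.05 with no overlap. Etv4, an Ets factor switched on by Fgf, was at 57.2 and 57.7 CPM on D7 and 85.4 and 89.8 CPM on D6 (-0.61 ± 0.05). Its relative Etv5 was at 72.6 and 67.9 CPM on D7 and 103 and 98.98 CPM on D6 (-0.53 ± 0.05). Dusp6, the phosphatase that removes phosphate from Erk, was at 88.4 and 86.1 CPM on D7 and 115 and 104 CPM on D6 (-0.33 ± 0.05). In the D7G cells, Il17rd averaged 332 CPM, against 159 CPM in D7. Of 13 Fgf ligands and receptors, 3 were higher and 2 lower; DESeq2, scaling by library totals, or leaving out any 1 of the D7 and D6 libraries left 1 lower. The counts of 3 and 2 lie near the shares over all genes (20.5% higher and 15.6% lower). Fgfr3, a receptor of neural progenitors, was at 16.5 and 18.6 CPM on D7, against 6.12 and 6.13 CPM on D6 (1.52 ± 0.09). Fgfr2 was at 110.3 and 112 CPM on D7 and 84.2 and 78.3 CPM on D6 (0.45 ± 0.05).

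The retinoic acid pathway was higher for 8 of 16 genes tested and lower for 2, with a median of 0.30. Rarb, a nuclear receptor that retinoic acid itself induces, was at 25.3 and 26.4 CPM in the D7 libraries, against 13.2 and 11.2 CPM in the D6 libraries. Both D7 libraries lay well above both D6 libraries (1.09 ± 0.09, adjusted p = 1.23e-08). Cyp26a1, the enzyme that degrades retinoic acid and is also induced by it, was at 25.4 and 23.8 CPM on D7 and 13.3 and 14.3 CPM on D6 (0.83 ± 0.10). Crabp1 and Crabp2, which carry retinoic acid inside the cell, also rose. Crabp1 was at 241 and 264 CPM on D7 and 169 and 157 CPM on D6 (0.63 ± 0.06). Crabp2 was at 449 and 467 CPM on D7 and 354 and 317 CPM on D6 (0.45 ± 0.04). Aldh1a2, which makes retinoic acid in the somites, was not called, at 20.05 and 16.95 CPM on D7 and 21.02 and 18.4 CPM on D6 (-0.09 ± 0.09, adjusted p = 0.439). Rarg and Stra6 fell. Rarg, the receptor of caudal progenitors, was at 33.3 and 36.04 CPM on D7 against 45.4 and 47.8 CPM on D6 (-0.43 ± 0.05). Stra6, a retinol uptake receptor, was at 105 and 110.0 CPM on D7 against 138 and 138 CPM on D6 (-0.36 ± 0.05). Crabp2 averaged 124 CPM in D7G, against 458 CPM in D7.

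Rarb and Cyp26a1 are shown with the 250 bases before their starts because, of the 13 tested genes of this pathway with a RefSeq window, they are the 2 that hold a direct repeat of the retinoic acid response element. Capitals mark 2 copies of GTTCA with 6 bases between them, searched on both strands; the span of each match, spacer included, is in capitals. Rarb lies on the minus strand at chr14:16575477-16575726 and Cyp26a1 on the plus strand at chr19:37697558-37697807, both in GRCm38.p6.
Rarb: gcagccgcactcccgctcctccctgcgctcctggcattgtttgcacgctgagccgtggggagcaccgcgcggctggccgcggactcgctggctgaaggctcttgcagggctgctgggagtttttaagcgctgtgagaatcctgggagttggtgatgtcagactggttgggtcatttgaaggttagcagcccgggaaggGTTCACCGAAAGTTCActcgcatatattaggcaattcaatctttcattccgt
Cyp26a1: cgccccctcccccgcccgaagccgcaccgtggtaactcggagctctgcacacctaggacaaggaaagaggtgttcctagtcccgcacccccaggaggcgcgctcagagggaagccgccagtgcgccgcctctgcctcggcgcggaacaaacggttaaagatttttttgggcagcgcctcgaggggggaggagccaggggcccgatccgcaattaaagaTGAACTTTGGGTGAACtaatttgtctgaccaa
The match starts at -52 and ends at -37 in Rarb and lies on the opposite strand from -32 to -17 in Cyp26a1. Of the 32851 windows, 22 (0.067%) hold this motif. Other forms of the element were not searched, so the share describes these letters only and is no evidence about the 2 genes.

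Neural progenitor genes were higher for 12 of 18 tested, with 1, Lix1, lower (2 lower without D7 replicate 2), and a median of 0.24; 20.5% of all genes were higher. Sox2, shared by NMPs and neural progenitors, was at 229 and 235 CPM on D7 and 204 and 187 CPM on D6 (0.25 ± 0.04). Sox1, which marks committed neural cells, was at 64.3 and 60.9 CPM on D7 and 59.8 and 51.2 CPM on D6 (0.17 ± 0.06); this call was lost with DESeq2 (adjusted p = 0.08), without D6 replicate 2 (0.06, adjusted p = 0.474), and without either D3, D7 or D7G library. Pax6, a homeobox gene of ventricular zone progenitors, was at 27.98 and 28.6 CPM on D7, against 15.7 and 12.7 CPM on D6. It was thus higher in both D7 libraries than in both D6 libraries (0.99 ± 0.09). Pou3f2 and Pou3f3, POU factors of neural progenitors, rose with it. Pou3f2 was at 72.7 and 72.3 CPM on D7 and 41.6 and 36.7 CPM on D6 (0.89 ± 0.06). Pou3f3 was at 29.1 and 27.4 CPM on D7 and 13.8 and 13.3 CPM on D6 (1.06 ± 0.09). Of 15 radial glia and glial genes, 10 were higher and 1, Ptprz1, lower. Ednrb, the endothelin receptor, was at 39.3 and 43.1 CPM in D7 cells, against 14.00 and 13.6 CPM in D6 cells (1.58 ± 0.07). Slc1a2, a glutamate transporter of radial glia, was at 15.2 and 16.6 CPM on D7 and 7.60 and 6.33 CPM on D6 (1.19 ± 0.10).

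Notch pathway members went both ways: of 22 tested, 7 were higher and 5 lower (3 lower with DESeq2), with a median of 0.04. These counts stand beside 20.5% of all genes higher and 15.6% lower, and the median of all genes was also 0.04. Hes5, the Notch effector of neural progenitors, was at 28.01 and 30.2 CPM in D7 libraries, against 10.9 and 9.04 CPM in D6 libraries. Both D7 libraries lay well above both D6 libraries (1.54 ± 0.09, adjusted p = 1.36e-10). Its relative Hes1 fell instead, to 45.96 and 48.6 CPM on D7 against 76.3 and 63.4 CPM on D6 (-0.56 ± 0.07), and so did Hey1 (-0.45 ± 0.08). Dlk1, a membrane protein related to Notch ligands, was at 63.6 and 70.5 CPM on D7 and 29.5 and 24.1 CPM on D6 (1.32 ± 0.07). The ligand Dll1, made by cells entering neurogenesis and by presomitic cells, was not called (79.6 and 85.6 CPM on D7, 78.9 and 74.7 CPM on D6; 0.11 ± 0.05, adjusted p = 0.115). Hes5 averaged 2.63 CPM on D3, 9.99 CPM on D6 and 29.1 CPM on D7, and it averaged 15.5 CPM in D7G. The 250 bases before its start, chr4:154960673-154960922 on the plus strand of GRCm38.p6, are shown because it had the largest rise of the list, with TGGGAA, the core letters bound by Rbpj, in capitals on either strand.
Hes5: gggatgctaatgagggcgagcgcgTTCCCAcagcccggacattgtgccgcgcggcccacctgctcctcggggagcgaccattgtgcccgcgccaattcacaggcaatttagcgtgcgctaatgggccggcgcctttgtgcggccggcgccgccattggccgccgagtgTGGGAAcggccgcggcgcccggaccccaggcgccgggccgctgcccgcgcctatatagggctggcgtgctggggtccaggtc
It holds 2 matches, from -226 to -221 on the opposite strand and from -82 to -77 on its own. A match stands in 21.6% of all windows and 2 or more in 2.77%. Of 17 Notch pathway genes with a window, 6 hold one.

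**Figure D3:**
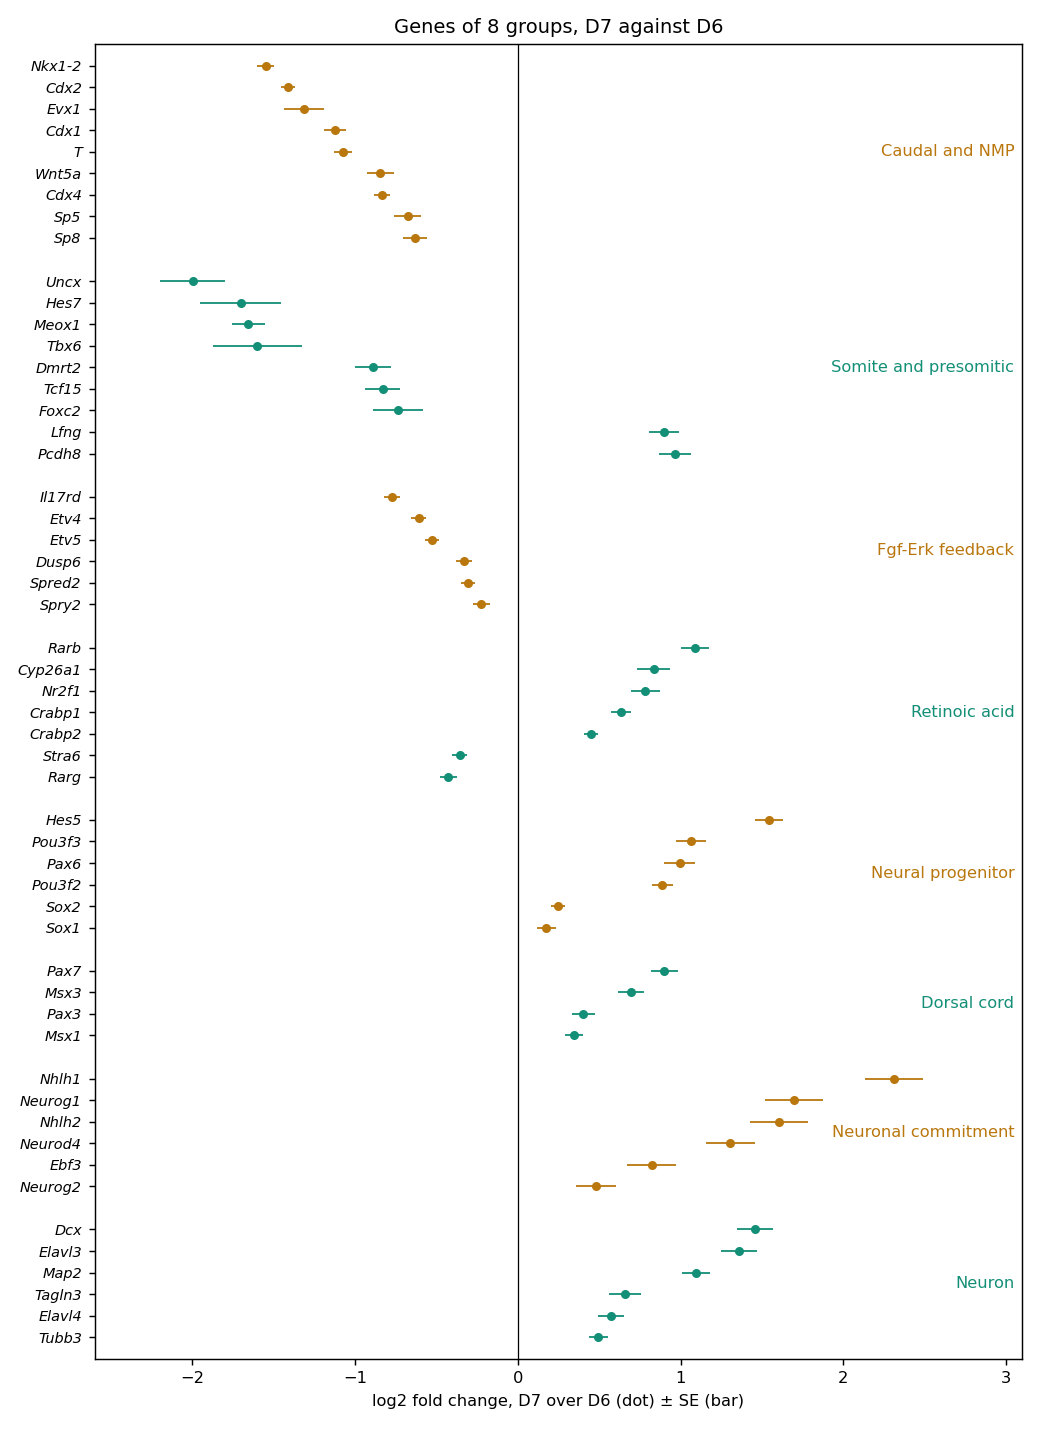
Log2 fold change of D7 over D6 (dots) with its standard error (bars) for called genes of 8 groups, drawn in order of their change within a group. Caudal, somite and Fgf-Erk feedback genes lie below 0 apart from Lfng and Pcdh8, and neural, dorsal cord and neuronal genes lie above 0; Stra6 and Rarg are the retinoic acid genes below 0.

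Genes of neuronal commitment rose. Of 24 tested, 16 were higher on D7 and 0 were lower, with a median of 0.83. Nhlh1, a bHLH factor of newborn neurons, was at 8.08 and 9.88 CPM in D7 cells, against 1.80 and 1.81 CPM in D6 cells. Its D7 values were more than 4 times its D6 values (2.31 ± 0.18, adjusted p = 1.13e-08). Neurog1, a proneural factor, was at 6.70 and 7.32 CPM on D7 and 1.71 and 2.61 CPM on D6 (1.70 ± 0.18). Its paralogue Neurog2 was at 8.68 and 9.97 CPM on D7 and 6.57 and 6.81 CPM on D6 (0.48 ± 0.12), after an average of 0.63 CPM on D3. Without D7 replicate 2 it was not called (0.34, adjusted p = 0.107). Neurod4, which acts after the neurogenins, was at 5.51 and 5.90 CPM on D7 and 2.48 and 2.13 CPM on D6 (1.31 ± 0.15). The zinc finger repressor Scrt2 was at 2.66 and 3.37 CPM on D7 and 0.644 and 0.613 CPM on D6 (2.26 ± 0.23). Myt1, a factor that promotes neuronal exit from the cycle, was at 2.51 and 2.77 CPM on D7 and 0.74 and 0.646 CPM on D6 (1.92 ± 0.22).

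Most genes for proteins of the young neuron were higher as well. Of 23 cytoskeletal and RNA-binding protein genes, 15 were higher and 1, Nefl, lower. The call on Nefl was lost with library totals, with no filter, in the second count table, and without D6 replicate 2 or D7 replicate 2, and 2 genes were lower without D6 replicate 1. Dcx, the doublecortin of migrating neurons, was at 11.1 and 9.996 CPM in D7 cells, against 4.02 and 3.65 CPM in D6 cells (1.46 ± 0.11). Elavl3, a neuronal RNA-binding protein, was at 9.48 and 10.4 CPM on D7 and 3.89 and 3.87 CPM on D6 (1.36 ± 0.11). Map2, of dendrites, was at 21.8 and 20.2 CPM on D7 and 10.2 and 9.49 CPM on D6 (1.09 ± 0.09). Tubb3, the neuronal β-tubulin, was at 56.9 and 60.6 CPM on D7 and 42.8 and 40.5 CPM on D6 (0.50 ± 0.06). These were not at their highest in the series: Tubb3 averaged 80.9 CPM on D2, and Elavl3 averaged 26.99 CPM on D2. Stmn2, another neuronal tubulin-binding protein, was not called (20.5 and 18.97 CPM on D7, 18.2 and 24.7 CPM on D6; -0.12 ± 0.09, adjusted p = 0.347), but was called lower without D6 replicate 1 (-0.32, adjusted p = 0.00388).

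Genes of mature neuronal function gave counts that hung on single libraries. Of 20 synapse and channel genes tested, 8 were higher and 0 lower, but the count of 8 became 4 without D6 replicate 2 or D7 replicate 2 and 5 without D7 replicate 1, with DESeq2 or with no filter, and 1 was lower without either D3 or D7G library and 2 without D7 replicate 2. Gria2, a glutamate receptor subunit, was at 2.15 and 2.08 CPM on D7 and 0.869 and 0.355 CPM on D6 (1.78 ± 0.29, or 2.56 without D6 replicate 1). Of 23 genes that give cord interneurons and motor neurons their identity, 3 were higher and 1 lower, beside 20.5% and 15.6% of all genes. Lhx5, of dorsal interneurons, was at 1.94 and 2.05 CPM on D7 and 0.322 and 0.646 CPM on D6 (2.04 ± 0.29). Lbx1, of another dorsal class, was at 1.71 and 1.63 CPM on D7 and 0.644 and 0.226 CPM on D6 (1.93 ± 0.38, or 2.86 without D6 replicate 1). The motor neuron gene Isl1 was not called (0.568 and 0.662 CPM on D7, 0.257 and 0.517 CPM on D6; adjusted p = 0.177). Of 10 forebrain and midbrain genes tested, 0 were called in edgeR; scaling by library totals gave 1 higher.

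Axon guidance genes changed in both directions, with 16 of 31 higher and 6 lower. Robo3, a receptor of commissural axons, was at 6.88 and 7.23 CPM in D7 cells, against 1.32 and 1.84 CPM in D6 cells (2.16 ± 0.16). Sema3d, a repulsive ligand, was at 11.04 and 12.8 CPM on D7 and 2.70 and 2.68 CPM on D6 (2.15 ± 0.14), with 2.31 CPM on average in D7G. Unc5a, a netrin receptor, was at 3.95 and 4.97 CPM on D7 and 0.933 and 0.968 CPM on D6 (2.22 ± 0.21). A pair of ephrin receptors moved apart. Epha3 was at 25.3 and 23.6 CPM on D7 and 10.5 and 8.94 CPM on D6 (1.33 ± 0.08). Epha5 was at 9.90 and 8.85 CPM on D7 and 30.9 and 30.4 CPM on D6 (-1.71 ± 0.09). On D3 the group means were 0.523 CPM for Epha3 and 3.61 CPM for Epha5.

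Ntrk2 (TrkB), the receptor of brain-derived neurotrophic factor, had the largest rise among genes at 5 CPM or more. It was at 9.78 and 12.2 CPM in D7 libraries, against 1.80 and 1.58 CPM in D6 libraries. The D7 values were more than 5 times the D6 values (2.70 ± 0.14, adjusted p = 7.58e-11). On D2 it had averaged 16.9 CPM, on D3 1.06 CPM, so its level on D7 was below that on D2. Of 17 growth factor receptors tested, 6 were higher and 2 lower. Gfra1, a receptor of glial-derived neurotrophic factor, was at 4.37 and 5.15 CPM on D7 and 2.19 and 2.07 CPM on D6 (1.16 ± 0.15). Its relative Gfra3 was at 9.43 and 9.66 CPM on D7 and 22.5 and 20.8 CPM on D6 (-1.18 ± 0.08).

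Progenitor genes of the cord were grouped by their place along its dorsal to ventral axis. Of 14 dorsal progenitor genes tested, 11 were higher on D7 and 0 lower, with a median of 0.75. Pax7, of the dorsal neural tube, was at 41.9 and 44.1 CPM in D7 cells, against 24.7 and 21.4 CPM in D6 cells. Its groups did not overlap (0.90 ± 0.08). Msx3, confined to the dorsal cord in the mouse, was at 32.5 and 31.2 CPM on D7 and 19.9 and 19.4 CPM on D6 (0.70 ± 0.08). Olig3, of the dorsal-most progenitors, was at 3.77 and 4.43 CPM on D7 and 2.09 and 2.39 CPM on D6 (0.87 ± 0.17). Lmx1a, Gsx1 and Gsx2 were called at under 1 CPM in every D7 and D6 library; the call on Gsx1 was lost without any 1 of the 10 libraries and that on Gsx2 without D7 replicate 1. Of 12 intermediate and ventral genes, 2 were higher and 1 lower; 1 was higher without D6 replicate 2 or D7 replicate 2, and 2 were lower without D7 replicate 2. The ventral gene Nkx6-1 was at 3.92 and 5.15 CPM on D7 and 5.63 and 5.42 CPM on D6 with no call (-0.29 ± 0.15, adjusted p = 0.14), but was called lower without D7 replicate 2 (-0.53, adjusted p = 0.0312). Whether the dorsal and ventral lists differ from each other was not tested.

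The signals that pattern this axis were also measured. Of 13 genes for Bmp ligands, which act from the dorsal side, and Bmp antagonists, 5 were higher and 0 lower. Bmp4 was at 18.5 and 17.04 CPM on D7 and 9.14 and 9.75 CPM on D6 (0.91 ± 0.10). The antagonist Chrd was at 5.24 and 5.48 CPM on D7 and 2.38 and 3.00 CPM on D6 (0.99 ± 0.17). Of 10 genes that respond to Bmp, 6 were higher and 0 lower (3 higher without D7 replicate 1). Msx1 and Msx2 are among these 6 and were also counted among the dorsal progenitor genes. Id3, an inhibitor of bHLH factors, was at 137 and 129 CPM on D7 and 108 and 99.3 CPM on D6 (0.36 ± 0.07). For the ventral signal Shh, 4 of 11 pathway genes were higher and 3 lower. Co-receptors that Shh is known to repress rose. Cdon was at 107 and 111 CPM on D7 and 59.3 and 62.2 CPM on D6 (0.85 ± 0.04). Boc was at 106 and 113 CPM on D7 and 75.4 and 64.05 CPM on D6 (0.65 ± 0.06). Gas1 was at 118 and 121 CPM on D7 and 91.6 and 81.1 CPM on D6 (0.47 ± 0.05). Gli1, which Shh is known to induce, fell to 28.2 and 29.96 CPM on D7 against 36.9 and 37.6 CPM on D6 (-0.36 ± 0.07).

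Hox genes, which give cells their position along the body, showed small changes. Of 12 genes of paralogue groups 1 to 4, 2 were higher and 5 lower on D7; of 15 genes of groups 5 to 9, 1 was higher and 4 lower; and of 12 genes of groups 10 to 13, 1 was higher and 0 lower. Hoxd3 had the largest rise among called Hox genes, at 14.9 and 17.9 CPM on D7 and 11.3 and 9.65 CPM on D6 (0.65 ± 0.11). Hoxb7 had the largest fall, at 27.6 and 24.5 CPM on D7 and 36.01 and 33.6 CPM on D6 (-0.42 ± 0.08). Of all genes, 20.5% were higher and 15.6% lower. The Hox counts hang on single libraries and on scaling. In groups 1 to 4, 1 gene was higher without D6 replicate 2 or any 1 of the D3 and D7 libraries. Lower genes of groups 1 to 4 numbered 3 without D6 replicate 1 or D7 replicate 1 and with library totals; higher genes of groups 5 to 9 numbered 0 in most alternatives and 5 with library totals; and the single rise in groups 10 to 13, Hoxa10 at 21.8 and 22.7 CPM on D7 and 20.4 and 18.5 CPM on D6 (0.19 ± 0.07, adjusted p = 0.0462), was lost in most alternatives. Hoxc10 was at 48.2 and 45.7 CPM on D7 and 47.1 and 43.6 CPM on D6, with no call (0.05 ± 0.06, adjusted p = 0.553), and averaged 85.8 CPM in D7G. Hoxd11 was at 4.37 and 3.88 CPM on D7 and 3.89 and 3.68 CPM on D6 and averaged 17.3 CPM in D7G. Gdf11 itself was not called (53.7 and 50.3 CPM on D7, 58.8 and 53.7 CPM on D6; -0.11 ± 0.06, adjusted p = 0.143), though it was called lower without D7 replicate 1 (adjusted p = 0.044) and without either D7G library.

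The heterochronic network of Lin28, an RNA-binding protein that blocks maturation of let-7 microRNAs, was lower. Of 10 genes tested, 6 were lower on D7 and 1, Mycn, higher. Lin28a was at 312 and 291 CPM in D7 cells, against 525 and 513 CPM in D6 cells. Both D7 libraries lay far below both D6 libraries (-0.78 ± 0.04, adjusted p = 9.21e-11). Lin28a averaged 880.1 CPM on D2, 750.3 CPM on D3, 519 CPM on D6 and 301 CPM on D7, so each group stood below the one before. Lin28b was at 171 and 166 CPM on D7 and 211 and 207 CPM on D6 (-0.31 ± 0.04). Nr6a1, a nuclear receptor of the trunk stage, was at 132 and 139 CPM on D7 and 180.4 and 193 CPM on D6 (-0.46 ± 0.04). In D7G, Lin28a averaged 162 CPM. Myc was at 43.5 and 41.1 CPM on D7, against 66.4 and 61.8 CPM on D6 (-0.60 ± 0.06). Mycn was at 91.3 and 88.4 CPM on D7 and 61.95 and 58.8 CPM on D6 (0.57 ± 0.04). Pluripotency genes went both ways. Klf5, Klf4, Dppa5a, Dnmt3l, Tbx3 and Esrrb were called higher, and Dnmt3b, L1td1, Pou5f1 and Sall4 lower. Of 20 pluripotency genes, 6 were higher and 4 lower, but 2 were higher without D6 replicate 1 and 1 without D7 replicate 1, and 2 were lower without D6 replicate 2 and 1 without D7 replicate 2. Pou5f1 (Oct4) was at 129.6 and 126 CPM on D7 and 132 and 161 CPM on D6 (-0.20 ± 0.07), with the D6 libraries further apart than the D7 libraries; the call was lost with DESeq2, without D6 replicate 2 (-0.06, adjusted p = 0.524) and without D7 replicate 2.

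Genes of DNA replication were lower by small amounts: 10 of 14 tested were lower on D7 and 0 higher, with a median of -0.16. The 14 genes are abundant as a set, at a summed 3798 and 3769 CPM in the D7 libraries. Among all genes with a mean of 100 CPM or more over D7 and D6, 39.5% were lower, against 15.6% of all genes. Mcm5, a subunit of the replicative helicase, was at 395 and 396 CPM on D7 and 482 and 491 CPM on D6 (-0.30 ± 0.03). Tyms, which makes thymidylate, was at 88.6 and 86.5 CPM on D7 and 117 and 114 CPM on D6 (-0.40 ± 0.04). Of 20 G1 cyclins, cycle inhibitors and Myc genes, 12 were higher and 5 lower. The higher genes included the cyclins Ccnd2 and Ccnd3, and the lower ones the cyclins Ccne1 and Ccne2. Cdkn1c (p57), a cycle inhibitor, was at 104 and 107 CPM on D7 against 67.7 and 61.3 CPM on D6 (0.71 ± 0.05). Cdkn2c, another inhibitor, was at 4.43 and 3.97 CPM on D7 against 2.06 and 2.13 CPM on D6 (1.003 ± 0.17). Btg2, a factor of the last division before neurons form, was at 130.3 and 141 CPM on D7 against 72.6 and 79.99 CPM on D6 (0.83 ± 0.06). Few mitosis genes were called, 2 of 14 higher and 2 lower, beside 20.5% and 15.6% of all genes. The 2 higher became 0 without D6 replicate 1 or D7 replicate 2 and 1 without D6 replicate 2 or either D2, D3 or D7G library, and the 2 lower became 4 without either D3 library and 5 without either D7G library. Mki67, the proliferation marker, was at 470.3 and 469.7 CPM on D7 and 474 and 481 CPM on D6 (-0.02 ± 0.04, adjusted p = 0.662).

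Genes of fibroblasts, matrix and mesenchyme were counted next. Of 12 genes of embryo fibroblasts tested, 9 were higher and 0 lower, and their summed level was 502 and 489 CPM in the D7 libraries, against 351 and 336 CPM in the D6 libraries. The list is also a check on feeder cells, of whose 5 markers Col1a1, Col1a2, Postn and Lum rose and Dcn did not pass the test. Col1a1, of fibrillar collagen, was at 25.9 and 28.7 CPM on D7, against 7.31 and 9.04 CPM on D6 (1.74 ± 0.11). Col1a2 was at 16.3 and 16.5 CPM on D7 and 5.41 and 5.36 CPM on D6 (1.61 ± 0.12). Dcn, decorin, stood at 0.778 and 0.271 CPM on D7 and 0.451 and 0.129 CPM on D6 (0.85 ± 0.50, adjusted p = 0.206); it was called higher without D6 replicate 1 (1.99) or D7 replicate 2 (1.38), and was -0.14 without D7 replicate 1. The rise of Postn was lost without either D3 library, D6 replicate 1 or D7 replicate 1, and that of Lum (2.64 ± 0.52) was 1.77 without D7 replicate 1. Both collagens were higher earlier, with Col1a1 at 98.1 CPM on average on D3 and 53.4 CPM on D2, and higher still in D7G (242 CPM). The part of feeder cells in these rises was not tested. Of 15 matricellular genes, 7 were higher and 2 lower. Thbs2, a thrombospondin, was at 10.5 and 11.3 CPM on D7 and 2.22 and 2.07 CPM on D6 (2.34 ± 0.14). Wisp1, a secreted Ccn protein, was at 4.52 and 4.67 CPM on D7 and 1.54 and 1.74 CPM on D6 (1.48 ± 0.18). Of 12 mesenchymal genes, 5 were higher and 1, Cdh2, lower (2 lower without either D7G library). Vim, vimentin, was at 424 and 424 CPM on D7 and 319 and 291 CPM on D6 (0.48 ± 0.05).

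Markers of other cell types were counted as well, beside 20.5% of all genes higher and 15.6% lower. Of 14 epithelial genes, 9 were higher and 0 lower, but 5 were higher without D6 replicate 1 and 4 without D7 replicate 2. Cldn4, a claudin, was at 39.5 and 46.4 CPM on D7 and 27.8 and 30.4 CPM on D6 (0.56 ± 0.07). Of 13 neural crest genes, 5 were higher and 0 lower; several alternatives, among them leaving out either D3 or D7G library or D6 replicate 2, gave 1 lower. Sox9, shared by crest and glial progenitors, was at 8.83 and 9.06 CPM on D7 and 4.34 and 3.26 CPM on D6 (1.23 ± 0.14). Of 12 endoderm, node and notochord genes, 2 were higher and 0 lower (1 higher without D7 replicate 1), and of 11 genes of lateral plate, vessel and blood, 1 was higher and 1 lower, both lost without D7 replicate 1; without D6 replicate 2 the count of higher genes was 0, and without either D7G library 2. Of 17 Tgf-β, Activin and Nodal genes, 6 were higher and 1 lower, but 2 were higher without D7 replicate 2, 0 were lower without either D2 library, D6 replicate 2 or D7 replicate 2, and 2 were lower without D7 replicate 1 or either D7G library. Tgfbi, a matrix protein induced by Tgf-β, was at 74.4 and 78.7 CPM on D7, against 29.2 and 27.5 CPM on D6 (1.43 ± 0.07).

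Genes that respond to serum, stress and handling were high on D7. Of 12 immediate early genes, 9 were higher and 0 lower, and the summed level of the 12 was 1337 and 1443 CPM in D7 libraries, against 715 and 768 CPM in D6 libraries. Jun was at 331 and 352 CPM on D7, against 95.2 and 111 CPM on D6, and Egr1 at 234 and 258 CPM on D7, against 79.5 and 96.7 CPM on D6. In both, every D7 library was above every D6 library (1.73 ± 0.08 for Jun, 1.48 ± 0.09 for Egr1). Fos was at 237 and 253 CPM on D7 and 143 and 144 CPM on D6 (0.78 ± 0.07), after 18.9 CPM on D3. The cells were detached with trypsin before lysis, per the labels, and the part of handling in these levels was not tested. Of 14 glycolysis and hypoxia genes, 10 were higher and 0 lower (1 lower without D7 replicate 2), with a median of 0.50. Bnip3, a mitochondrial protein induced in low oxygen, was at 47.2 and 53.7 CPM on D7 and 23.8 and 24.2 CPM on D6 (1.07 ± 0.07). Aldoa, an aldolase of glycolysis, was at 866 and 952 CPM on D7 and 623 and 654 CPM on D6 (0.51 ± 0.04). Of 13 p53 targets, 7 were higher and 0 lower (3 higher without D7 replicate 1); Cdkn1a (p21) was at 227 and 236 CPM on D7 and 163 and 179.6 CPM on D6 (0.44 ± 0.04). Of 14 cholesterol synthesis genes, 11 were higher and 1 lower (0 lower without D6 replicate 2 and with library totals). Hmgcs1, which starts the pathway, was at 1346 and 1292 CPM on D7 and 1032 and 965 CPM on D6 (0.40 ± 0.04).

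**Figure D4:**
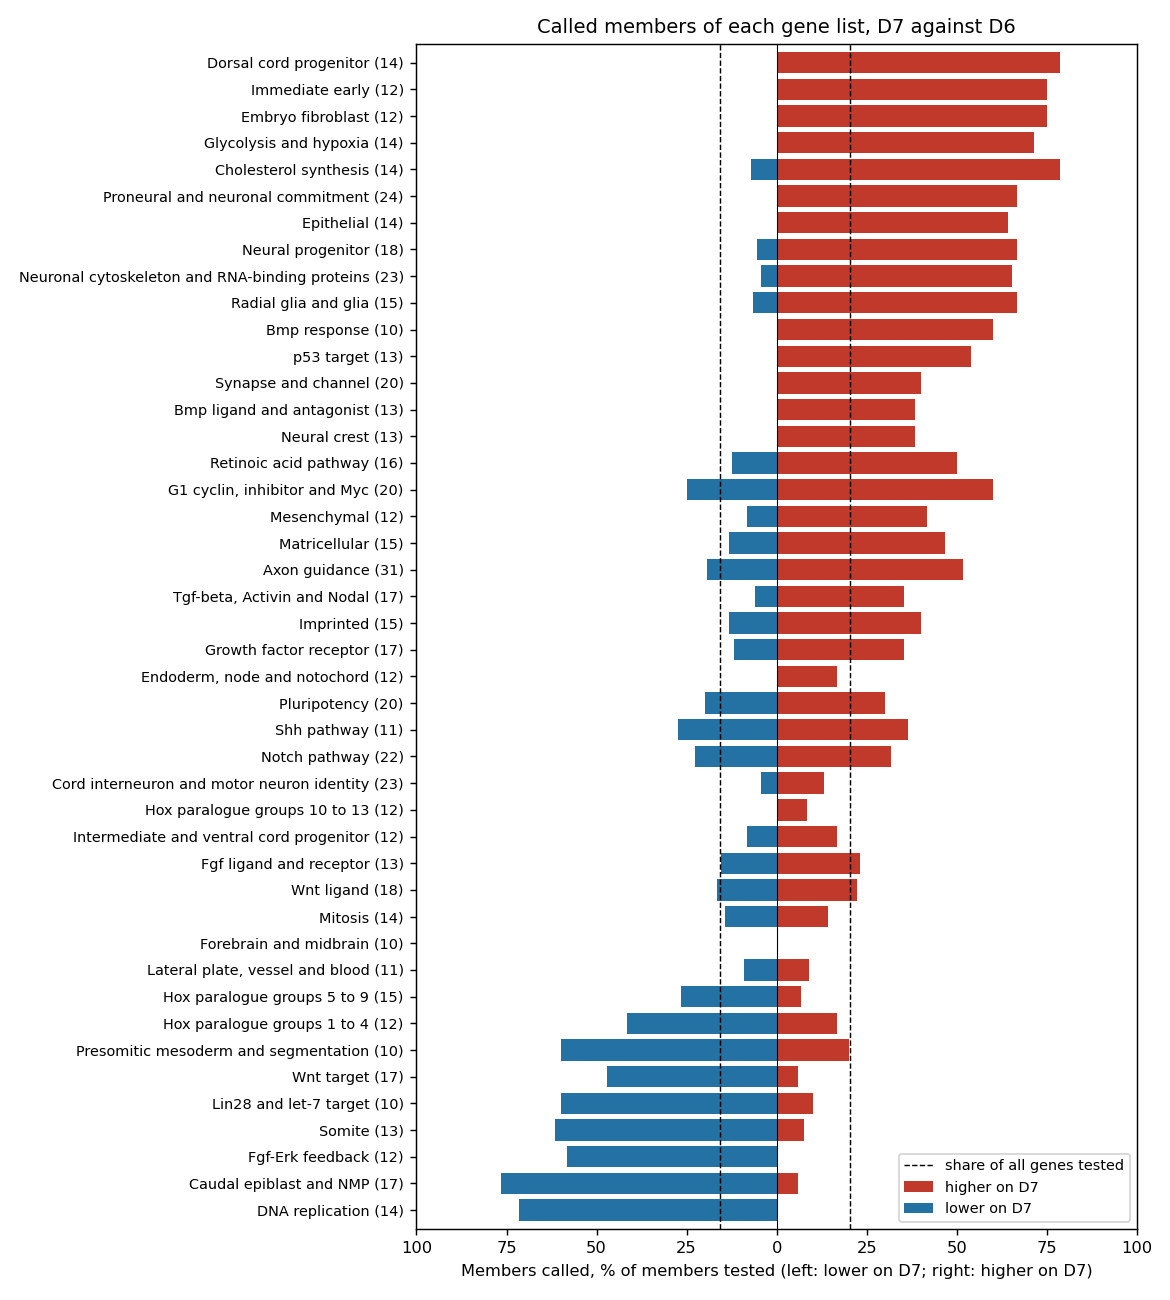
For each of the 44 gene lists, the share of its tested members (number in brackets) called higher on D7 (red, right) and lower on D7 (blue, left), with dashed lines at the shares of all tested genes, 20.5% higher and 15.6% lower. Dorsal cord, immediate early, fibroblast, glycolysis, cholesterol synthesis and neuronal commitment lists lie at the top. DNA replication, caudal, Fgf-Erk feedback and somite lists lie at the bottom.

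Some of the largest single changes fell outside these themes. Lmo2, a cofactor of blood and endothelial transcription factors, had the largest fall among genes at 5 CPM or more, leaving out predicted genes, at 4.79 and 4.40 CPM on D7 against 19.6 and 19.4 CPM on D6 (-2.08 ± 0.11); it averaged 10.9 CPM in D7G. Arg1, an arginase, was at 12.4 and 11.3 CPM on D7 and 32.8 and 28.1 CPM on D6 (-1.36 ± 0.09). Kif26b, an atypical kinesin of mesenchyme, was at 14.8 and 13.04 CPM on D7 and 37.9 and 35.2 CPM on D6 (-1.40 ± 0.08). Rgs4, which shortens G-protein signalling, was at 7.18 and 6.50 CPM on D7, against 1.38 and 1.45 CPM on D6 (2.27 ± 0.18). Ddr2, a collagen receptor, was at 11.7 and 11.1 CPM on D7, against 3.09 and 2.68 CPM on D6 (1.98 ± 0.13). Of 15 imprinted genes, 6 were higher and 2 lower (4 lower without either D7G library). Zim1 was at 12.4 and 13.2 CPM on D7 and 4.34 and 5.26 CPM on D6 (1.42 ± 0.12). Igf2, the fetal growth factor, was at 651 and 659 CPM on D7 and 865 and 869 CPM on D6 (-0.40 ± 0.05).

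In absolute terms the largest movements were among very abundant transcripts. Ncl, the nucleolar protein nucleolin, was at 2837 and 2630.1 CPM on D7, against 3738 and 3545 CPM on D6 (-0.41 ± 0.04). Npm1, nucleophosmin, was at 1845 and 1798 CPM on D7 and 2339 and 2294 CPM on D6 (-0.35 ± 0.03). Scd2, a fatty acid desaturase, was at 4259 and 4258 CPM on D7 and 3824 and 3650.2 CPM on D6 (0.19 ± 0.03). Col4a2, of basement membrane, was at 1040.2 and 978 CPM on D7 and 722 and 836 CPM on D6 (0.37 ± 0.08). Direction varied with level. Among genes with a mean of 100 CPM or more over D7 and D6, 15.3% were higher and 39.5% lower, among genes of 10 to 100 CPM 26.9% were higher and 19.8% lower, and among genes of 1 to 10 CPM 25.7% were higher and 6.61% lower. Among the 4292 genes under 1 CPM, 7.06% were higher and 2.54% lower. Counting precision differs between these classes, and TMM scaling presumes a majority of unchanged genes.

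The earlier step from D2 to D3, the first day with CHIR99021, shares no library with D7 and D6. Of 1632 genes that were at least 2-fold higher on D3 than on D2 (8.67% of genes tested), 210 (12.9%) were lower on D7 than on D6 and 412 (25.2%) higher, against 15.6% and 20.5% of all tested genes. They supplied 51 of the 133 falls of at least 2-fold (38.3%), T, Cdx2 and Nkx1-2 among these falls. They also supplied 76 of the 494 rises of at least 2-fold (15.4%), and their median change was 0.16, against 0.04 over all genes. Of 1036 genes at least 2-fold lower on D3 than on D2 (5.51%), 47 (4.54%) were lower and 222 (21.4%) higher on D7 than on D6. These 1036 genes included 84 of the 494 rises of at least 2-fold (17.0%), Ntrk2, Elavl3 and Fgfr3 among these rises. They also included 8 of the 133 falls of at least 2-fold (6.0%), and their median change was 0.29.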

How the data were processed

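The authors deposited raw counts per gene symbol for 10 libraries of mouse cells; the submitters' processing notes name mm10 and, with no role for each, featureCounts 1.6.3, limma, STAR and HISAT2 2.1.0. Counting options and the use of strand are not given in the sources used here. A second deposited table held counts for 55298 Ensembl genes, 98.39% with a symbol, and served as an alternative. Every row of the count table named a gene. The table's gene length column, a deposited measure of another kind, did not enter the tests.

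The main test used edgeR 4.0.16 in R 4.3.3, with DESeq2 1.42.0 and voom in limma 3.58.1 as alternatives. A single quasi-likelihood fit of all 10 libraries had 1 coefficient per group, TMM scaling, the default filterByExpr and 5 residual degrees of freedom; D7 against D6 was read from it, with Benjamini-Hochberg adjustment. The coefficient of variation between replicates was 3.34% and the SE of a D7 to D6 fold change had a median of 0.0889 (log2). CPM are scaled by TMM. The 44 gene lists and the members were chosen with earlier results of these data known. Some genes stand in more than 1 list, so the counts of different lists are not independent. Wnt5a, Wnt8a and Wnt5b, for example, are in both the caudal and the Wnt ligand list. Genes were named by rule: among called genes without overlap and with at least 5 CPM, predicted genes left out, the 15 largest rises and falls and the 10 largest changes in CPM each way; up to 6 called members per list; and fixed markers. Uncalled list members are named with their values. Some called list members are not reported here. Same-numbered D7 and D6 libraries did not deviate together (r = 0.0465, across genes), so replicate numbers were not used as a block. Alternatives were DESeq2, limma-voom, other scalings and filters, the second table, only the libraries compared, the block, and each library left out. Promoter sequences and their build are from RefSeq.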

Additional observations from a re-analysis of the deposited data

How the results depend on the processing

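D7 against D6 gave 6782 called genes, and between 4958 and 7272 when 1 library was left out. At least 2-fold changes numbered 627, 349 with DESeq2, and 454 to 618 without 1 library. Rises numbered 3853 and 2294 to 3607 without 1 library, the fewest without D7 replicate 2. Rises of at least 2-fold numbered 494, 283 with DESeq2, and 329 to 483 without 1 library. Falls of at least 2-fold numbered 133, 66 with DESeq2, 86 where 1 CPM in 2 libraries was the minimum, and 115 to 157 without 1 library. The causes were not tested. With the replicate number as a block, 6968 genes were called, 6742 of the 6782 among them, and the call on none of the 158 genes named here changed; the numbers do not pair the samples. Where a group loses a library, its lone sample is taken to vary as the other groups do.

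Over all alternatives, 63 gene values lost their call, 21 gained one and 9 changed sign, all 9 of uncalled genes. Leaving out 1 library at a time, log2 fold changes ranged from -0.26 to 0.0037 for Aldh1a2, from -0.14 to 1.99 for Dcn, from -0.24 to 0.0078 for Fgf8, from -0.027 to 0.11 for Hoxc10, from -0.0027 to 0.17 for Hoxd11, from -0.090 to 0.32 for Nanog and from -0.32 to 0.11 for Stmn2. With library totals, Mki67 was at 0.011. The median log2 fold change of all genes was 0.04, against 0.07 with library totals and 0 with no filter. Depth limits genes under 1 CPM, whose few counts leave wide errors.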

Other observations

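Genes of ribosome biogenesis were lower on D7. The following lists were drawn up after the values were seen and are descriptions with no test of the list. Of 25 nucleolar and ribosome assembly genes, 23 were called lower on D7 and 0 higher, with a median of -0.35, beside 15.6% of all genes lower. Ddx21, a nucleolar helicase, was at 452 and 423 CPM in D7 cells, against 657 and 641 CPM in D6 cells (-0.57 ± 0.04). Wdr46, a nucleolar scaffold protein, was at 55.6 and 55.9 CPM on D7 and 92.4 and 85.6 CPM on D6 (-0.67 ± 0.05). Polr1a, the large subunit of RNA polymerase I, was at 181 and 185 CPM on D7 and 226 and 219 CPM on D6 (-0.28 ± 0.04). The 2 not called were Fbl (-0.11 ± 0.07, adjusted p = 0.248 in edgeR) and Nop56 (-0.08 ± 0.04, adjusted p = 0.128); Fbl was called lower without D7 replicate 1 (-0.28) and Nop56 without either D3 or D7G library or D7 replicate 2. Most of these genes are abundant, a class in which 39.5% of all genes were lower.

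Collagen chains rose widely. Of 39 chains tested of 44 in the table, 25 were higher on D7 and 2 lower, with a median of 0.50. Col6a3 was at 6.46 and 6.38 CPM on D7, against 2.45 and 1.81 CPM on D6 (1.59 ± 0.17). Col2a1, of cartilage and notochord, was at 208 and 214 CPM on D7 and 182 and 162 CPM on D6 (0.29 ± 0.05), and Col27a1 was one of the 2 that fell (-0.48 ± 0.05). Of 18 genes for nicotinic receptors and neurosecretory proteins tested, 11 were higher and 0 lower, with a median of 0.73. The receptor subunits Chrna3 and Chrnb4 rose together: Chrna3 was at 5.57 and 5.54 CPM on D7 and 1.67 and 1.49 CPM on D6 (1.81 ± 0.16), and Chrnb4 was at 4.43 and 4.94 CPM on D7 and 1.26 and 1.42 CPM on D6 (1.80 ± 0.16). Sst, the peptide somatostatin, was at 3.95 and 3.64 CPM on D7 and 0.612 and 0.678 CPM on D6 (2.55 ± 0.22), from 0.123 CPM on average on D3. Of 13 protein genes of the mitochondrial genome, 7 passed the filter on low counts, 4 were lower and 1, mt-Co1, higher. mt-Nd2 was at 1610.2 and 1567 CPM on D7 and 2330.2 and 2249.8 CPM on D6 (-0.53 ± 0.03), while mt-Co1 was at 9557 and 9746 CPM on D7 and 8393 and 9012 CPM on D6 (0.15 ± 0.04), a call that was lost without D6 replicate 1 or D7 replicate 2. Near-identical nuclear copies of these genes share reads with them, so their values are uncertain.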
